A study of Mus musculus with 6 samples.

Results

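Neutrophils are short-lived white cells that arrive early in inflamed tissue and are common among the immune cells of solid tumours. They carry antimicrobial proteins in granules that are filled at successive steps of their development in the bone marrow, and their cytosol is rich in S100A8 and S100A9, calcium-binding proteins that pair as calprotectin and act as alarmins once released. The genes described here were 10 named genes of this system: the alarmin genes S100a8 and S100a9, the receptor genes Csf3r, Cd177, Trem1 and Trem3, the secreted protein gene Retnlg, and the granule protein genes Ngp, Camp and Ltf. They were chosen by name, and each was read by the probe set with exactly 1 gene symbol and the highest mean signal, which gave a value for 10 of the 10 among 22180 genes measured. Each of the 10 had a single such probe set.

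The values came from 6 mouse colorectal tumours on 6 whole-transcript arrays, 3 grown in white adipose tissue, where the body stores fat, and 3 grown in non-adipose tissue, all after injection of the cancer cells and collection at 1 to 1.5 cm3. The sources used here give no strain, age or genotype, do not name the injected cells or the non-adipose tissue, and list no agent for either group. The labels call the arrays biological replicates. The deposited values were log2 signals, used as they stood, and an array median lay between 5.66 and 5.69 in every tumour.

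The labelled tissue was checked against marker genes, on the same log2 scale. The intestinal genes Cdx1 and Cdx2 were under the array medians, Cdx1 at 4.97 to 5.25 in white adipose and 5.21 to 5.32 in non-adipose tumours, and Cdx2 at 5.08 to 5.48 in white adipose and 5.32 to 5.63 in non-adipose tumours. The epithelial adhesion gene Epcam was also low, at 4.82 to 5.08 in white adipose and 4.61 to 5.29 in non-adipose tumours. The simple-epithelium keratin Krt8 was high, at 9.70 to 10.04 in white adipose and 9.46 to 9.73 in non-adipose tumours. Adipoq, which marks mature fat cells, was at 4.10 to 4.27 in white adipose and at 4.14 in each of the non-adipose tumours, so it did not set the sites apart. White adipose replicate 1 stood apart by 15 keratinocyte markers, with a mean of 8.14, whereas the 5 other tumours were at 5.12 to 6.22. Non-adipose replicates 1 and 3 had the highest means of 12 skeletal muscle markers, at 6.27 and 6.80, whereas the 4 other tumours were at 5.43 to 5.61. Results below are therefore also given with single arrays left out.

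The promoters of the 4 members whose signals differed most between tumours are shown first, with that of Ngp, a granule gene whose signal differed less, for comparison. Each window runs from 250 bases before to 50 bases after a RefSeq gene start on GRCm38.p6, 5′ to 3′ on the gene's own strand. Capitals mark matches to TTGCNNAA, a core that C/EBP factors bind, or to GAGGAAG, a core that PU.1 binds, both read on either strand (the reverse letters are TTNNGCAA and CTTCCTC). C/EBP and PU.1 factors direct granulocyte development, and no matches overlapped. The Csf3r window surrounds the start of a transcript that begins inside the interval RefSeq gives for that gene.
S100a8, chr3:90668821-90669120, plus strand: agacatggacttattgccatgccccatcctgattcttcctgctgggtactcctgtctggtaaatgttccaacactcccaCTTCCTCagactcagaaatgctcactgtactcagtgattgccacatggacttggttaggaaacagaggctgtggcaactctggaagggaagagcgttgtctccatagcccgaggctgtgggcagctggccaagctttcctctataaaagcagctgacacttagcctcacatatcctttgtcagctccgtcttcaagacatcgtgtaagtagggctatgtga
S100a9, chr3:90695672-90695971, minus strand: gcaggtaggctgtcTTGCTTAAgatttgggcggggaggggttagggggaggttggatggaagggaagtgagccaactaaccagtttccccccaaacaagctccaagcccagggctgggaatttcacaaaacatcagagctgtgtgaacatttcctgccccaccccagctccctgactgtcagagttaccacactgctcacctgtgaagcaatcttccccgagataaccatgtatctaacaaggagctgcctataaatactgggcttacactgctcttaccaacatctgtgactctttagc
Retnlg, chr16:48872358-48872657, plus strand: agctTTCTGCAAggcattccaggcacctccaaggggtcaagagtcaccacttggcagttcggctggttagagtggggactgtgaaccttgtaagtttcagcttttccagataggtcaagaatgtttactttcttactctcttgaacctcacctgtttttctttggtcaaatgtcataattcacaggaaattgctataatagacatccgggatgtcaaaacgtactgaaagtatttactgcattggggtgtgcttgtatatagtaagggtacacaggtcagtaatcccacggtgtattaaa
Csf3r, chr4:126024409-126024708, plus strand: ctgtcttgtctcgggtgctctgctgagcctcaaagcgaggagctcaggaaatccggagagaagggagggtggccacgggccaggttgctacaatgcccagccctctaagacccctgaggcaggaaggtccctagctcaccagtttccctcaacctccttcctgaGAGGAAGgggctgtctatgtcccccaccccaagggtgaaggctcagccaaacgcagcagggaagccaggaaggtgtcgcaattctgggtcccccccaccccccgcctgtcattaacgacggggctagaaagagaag
Ngp, chr9:110419558-110419857, plus strand: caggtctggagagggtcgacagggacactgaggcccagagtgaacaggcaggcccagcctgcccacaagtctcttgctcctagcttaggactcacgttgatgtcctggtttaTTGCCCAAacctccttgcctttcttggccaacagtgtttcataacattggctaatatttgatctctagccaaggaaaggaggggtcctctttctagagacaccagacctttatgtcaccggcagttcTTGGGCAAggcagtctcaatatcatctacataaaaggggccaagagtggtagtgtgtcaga
A promoter was at hand for 9 of the 10 members, Trem3 being the one without. TTGCNNAA was found in 4 of these 9, S100a9, Retnlg, Ngp and Ltf, and in 10.8% of 32851 mouse promoters of the same length. Ngp held 2 matches, whose first bases lie at -138 and -11 from the gene start. GAGGAAG was found in 2 of the 9, S100a8 at -171 and Csf3r at -86 (from that internal transcript start), and in 13.6% of all promoters. Of the members that varied most, S100a8, S100a9, Retnlg and Csf3r each held a match to 1 of the motifs. Of the members that varied less, Ngp and Ltf held matches, whereas Camp, Cd177 and Trem1 held none. A match describes the letters only. S100a8 and S100a9 lie side by side on chromosome 3, with 0 genes between them in the RefSeq table, and Trem1 and Trem3 lie on chromosome 17 with 0 protein-coding genes between them. Camp, Ngp and Ltf share chromosome 9 but are apart, with 8 and 20 protein-coding genes between neighbours.

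The alarmin genes differed far more between individual tumours than between sites. S100a8 was at 4.22, 4.89 and 5.005 in white adipose replicates 1, 2 and 3, against 5.86, 4.31 and 5.50 in non-adipose replicates 1, 2 and 3. S100a9, its partner, was at 5.14, 5.34 and 5.48 in the white adipose tumours, against 6.28, 4.64 and 5.75 in the non-adipose tumours. For both genes the white adipose tumours lay between the highest and the lowest non-adipose tumour or close to the lowest, and the groups overlapped. The S100a8 mean was 4.70 ± 0.42 in white adipose and 5.22 ± 0.81 in non-adipose tumours (SD, n = 3 each), a log2 difference of -0.52 (SE 0.43, 95% CI -1.57 to 0.53), or 1.43-fold lower. The S100a9 difference was -0.24 (SE 0.40, 95% CI -1.21 to 0.74), or 1.18-fold lower. Neither difference passed (limma, adjusted p = 0.936 and 0.954), and both confidence intervals included 0. An adjusted p of 0.936, here and below, was the smallest over all genes. Genes with unlike unadjusted p shared it, so it does not rank them. These are whole tumours, in which the number of neutrophils, the RNA per neutrophil and RNA from other cells cannot be told apart.

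**Figure D1:**
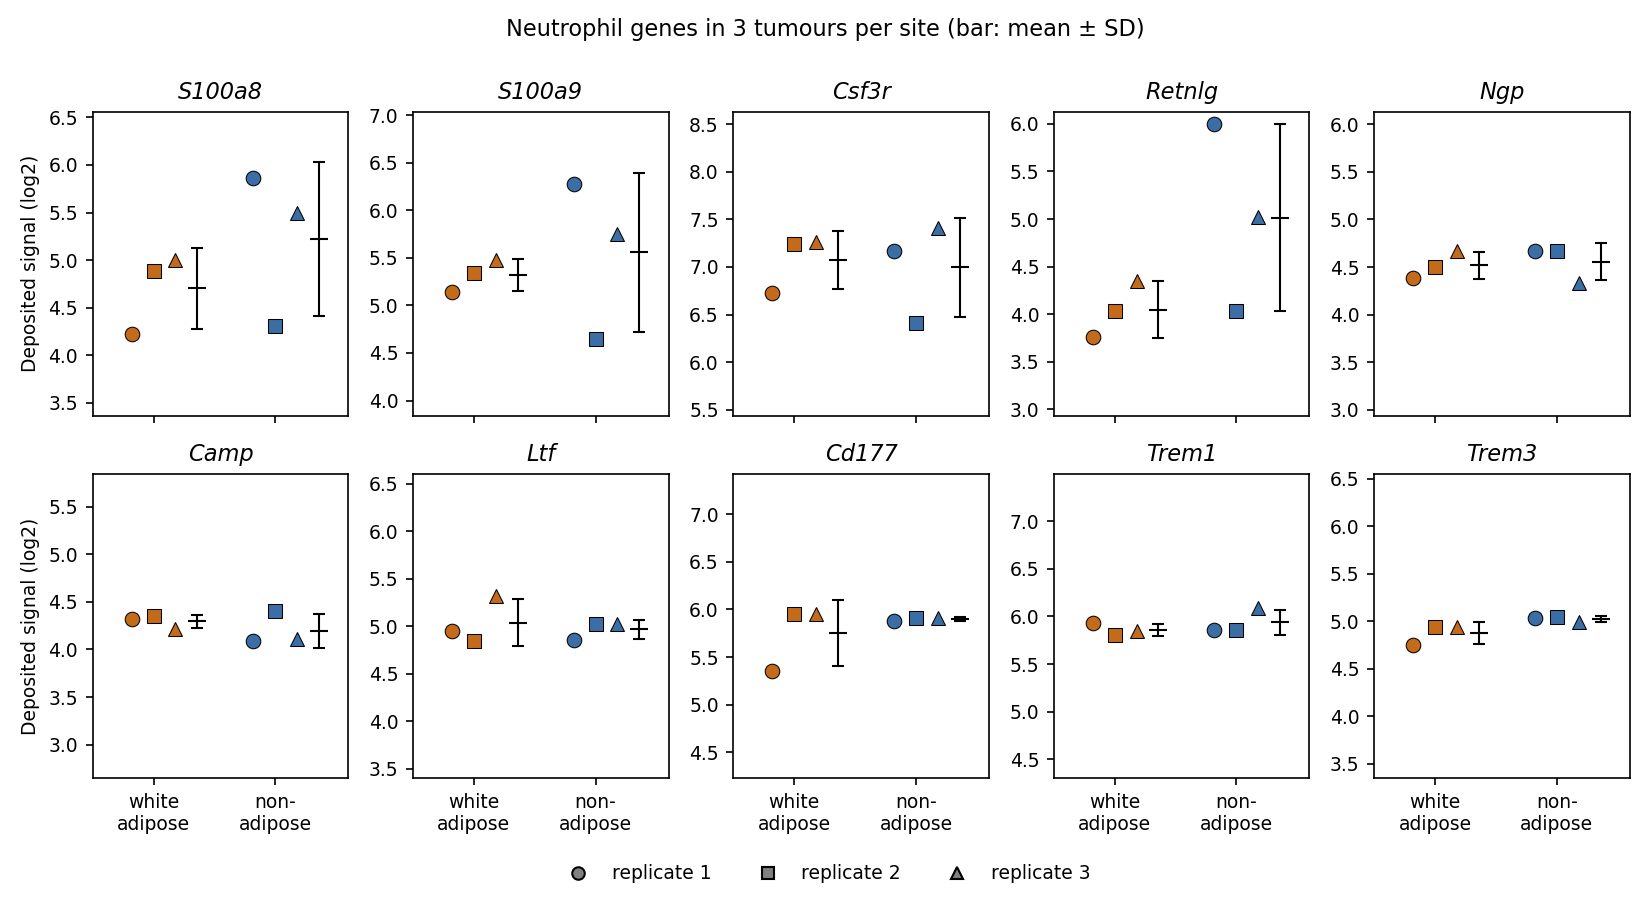
Deposited log2 signal of each of the 10 genes (y axes all span the same number of log2 units) in the 3 white adipose and 3 non-adipose tumours; symbols are replicates, and the bar beside them is the mean ± SD. S100a8, S100a9 and Retnlg reach their highest values in non-adipose replicate 1 (5.86, 6.28 and 5.99), while Ngp, Camp, Ltf, Trem1 and Trem3 span narrower ranges.

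Retnlg, which encodes the resistin-like protein gamma secreted by mouse neutrophils, had the largest site difference of the 10. It was at 3.76, 4.03 and 4.35 in the white adipose tumours, against 5.99, 4.03 and 5.02 in the non-adipose tumours. Non-adipose replicates 1 and 3 were above all white adipose tumours, whereas non-adipose replicate 2 had the same value as white adipose replicate 2. The difference was -0.97 (SE 0.48, 95% CI -2.14 to 0.20), or 1.96-fold lower in white adipose tumours, and did not pass (limma, adjusted p = 0.936). The mean signal of Retnlg stood at percentile 21.2 of the genes measured, and no detection calls were at hand for its low values.

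Of the receptors, Csf3r encodes the receptor for granulocyte colony-stimulating factor, which drives neutrophil production. It was at 6.72, 7.24 and 7.26 in the white adipose tumours, against 7.16, 6.41 and 7.41 in the non-adipose tumours. The lowest tumour was non-adipose replicate 2, and the sites differed by 0.08 (SE 0.29, 95% CI -0.62 to 0.77). Cd177, a glycoprotein on the neutrophil surface, was at 5.36, 5.95 and 5.95 in white adipose and at 5.88, 5.91 and 5.91 in non-adipose tumours. White adipose replicate 1 alone was low, and the difference of -0.15 (SE 0.17) became 0.053 without it.

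Trem1 and Trem3 encode immunoglobulin-like receptors that amplify inflammatory signalling through the adaptor TYROBP. Trem3 was at 4.75, 4.94 and 4.94 in the white adipose tumours, against 5.04, 5.05 and 4.99 in the non-adipose tumours. It was the single member whose groups did not overlap, a result found for 7.31% of all genes, 3.97% with white adipose lower. Its difference was small, -0.15 (SE 0.075, 95% CI -0.33 to 0.034), or 1.11-fold lower, and did not pass (limma, adjusted p = 0.936). Trem1 ran from 5.81 to 5.93 in white adipose and from 5.86 to 6.09 in non-adipose tumours, with a difference of -0.077 (SE 0.085).

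The granule protein genes hardly differed. Ngp encodes neutrophilic granule protein and Camp the cathelicidin antimicrobial peptide. Ltf encodes lactoferrin, which binds iron, and the 3 proteins are stored in secondary granules. Ngp ran from 4.38 to 4.67 in white adipose and from 4.33 to 4.67 in non-adipose tumours. Camp ran from 4.22 to 4.35 in white adipose and from 4.08 to 4.40 in non-adipose tumours. Ltf ran from 4.84 to 5.31 in white adipose and from 4.85 to 5.02 in non-adipose tumours, and in all 3 genes the groups overlapped. The differences were -0.035 (SE 0.12) for Ngp, 0.099 (SE 0.10) for Camp and 0.070 (SE 0.13) for Ltf. The 95% confidence intervals were -0.34 to 0.27, -0.15 to 0.35 and -0.26 to 0.40, so a 2-fold site difference, 1 on this scale, lay outside all of them. A probe set near background cannot show a change, however, and no detection calls were at hand: ranked by mean signal, the 3 genes stood at percentiles 21.3, 16.8 and 30.3. Ngp had exactly the same value, 4.67, in 3 arrays, non-adipose replicates 1 and 2 and the third white adipose tumour. Such exact ties between arrays were found for 5 of the 10 members, beside 35.3% of all genes.

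Across the 10 genes, 0 passed an adjusted p of 0.05 (limma with Benjamini-Hochberg adjustment over all 22180 genes), as did 0% of all genes. At an unadjusted p under 0.05 the count was also 0 of 10, beside 3.79% of all genes. The mean was lower in white adipose tumours for 7 of the 10 and higher for 3 (Csf3r, Camp and Ltf), whereas 50.2% of all genes had a lower mean. The median difference over the 10 was -0.11, beside -0.00043 over all genes, and shrank to -0.026 when white adipose replicate 1 was left out and to -0.051 when non-adipose replicate 1 was. Its full range with 1 array left out was -0.14 to -0.026.

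**Figure D2:**
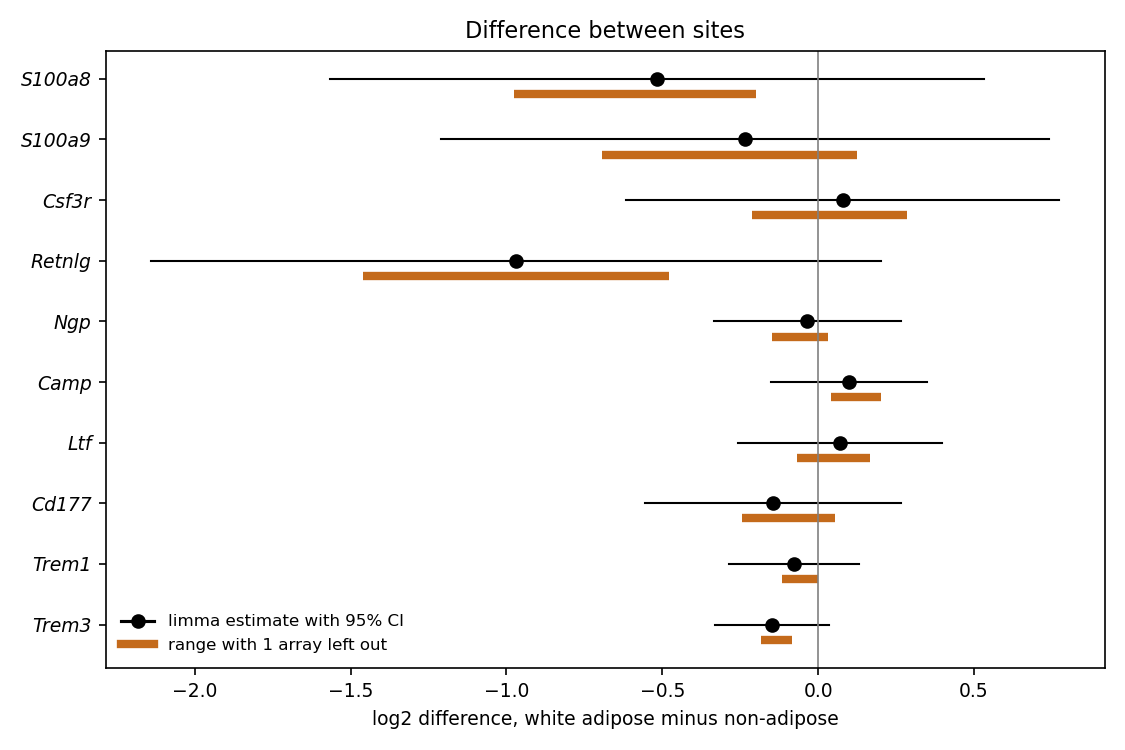
Log2 difference between white adipose and non-adipose tumours (x axis) for each gene, with limma's 95% confidence interval in black and, in orange, the range of the difference when 1 of the 6 arrays is left out. Each confidence interval includes 0, and the widest belongs to Retnlg (-2.14 to 0.20).

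The size of the site differences of the alarmin genes and Retnlg depended on single tumours. Without non-adipose replicate 2, where S100a9 and Csf3r were lowest, the differences were -0.98 (SE 0.28) for S100a8, -0.69 (SE 0.19) for S100a9 and -1.46 (SE 0.34) for Retnlg. In that limma fit 4 of the 10 were at an unadjusted p under 0.05, these 3 and Camp, which differed by 0.20 (SE 0.071), beside 4.04% of all genes. None of the 4 passed after adjustment (adjusted p = 0.967 for each). The count of members under 0.05 was 0 in the main fit and in every other alternative. Among the non-adipose tumours, replicate 2 was lowest for S100a8, S100a9 and Retnlg and highest for Camp. Leaving it out therefore had to widen these 4 differences. Without non-adipose replicate 1, where S100a8, S100a9 and Retnlg were highest, the differences were -0.20, 0.12 and -0.48, and S100a9 changed sign. S100a8 and Retnlg kept their direction with any 1 array left out. No other member differed by more than 0.29 in either direction with any 1 array left out.

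The members separated by how much they varied between tumours, whatever the site. S100a8, S100a9, Csf3r and Retnlg had standard deviations of 0.65, 0.55, 0.38 and 0.84 over the 6 arrays. These stood at percentiles 98.8, 98.2, 95.5 and 99.4 of all genes. The 6 others had standard deviations of 0.10 to 0.23, at percentiles 35.5 to 83.8, beside a median of 0.13 over all genes. A standard deviation of at least 0.3 was thus found for 4 of the 10 members, beside 8.52% of all genes. Retnlg covered 2.24 log2 units between the lowest and the highest tumour, S100a8 and S100a9 1.64 each, and Csf3r 1.00, against 0.28 to 0.60 for the others.

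**Figure D3:**
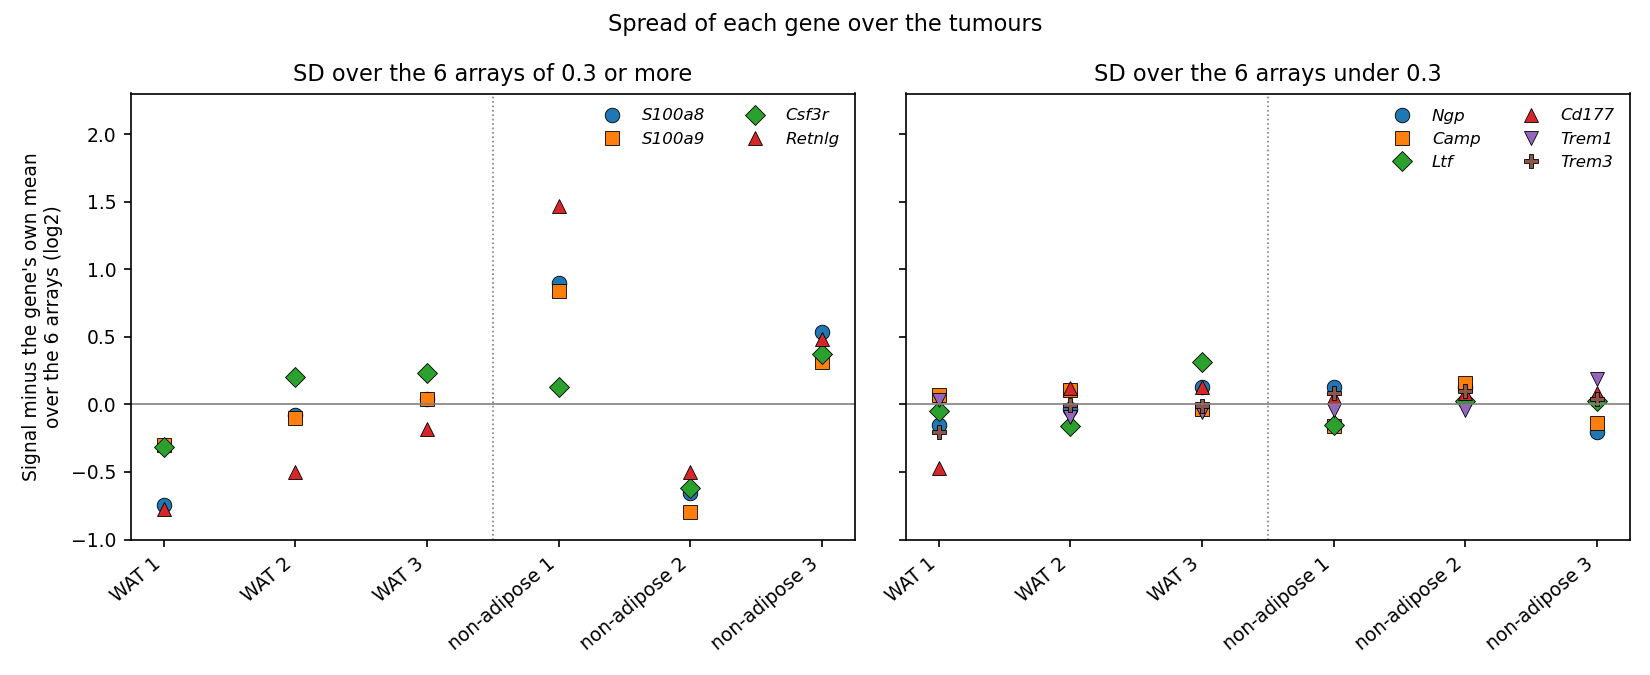
Signal of each gene minus its own mean over the 6 arrays (y axis, log2) for each tumour (x axis; WAT is white adipose tissue), with the 4 genes of higher spread on the left and the 6 others on the right. S100a8, S100a9 and Retnlg rank the 4 highest tumours alike (with a tie for Retnlg), with non-adipose replicate 1 on top, but differ in the lowest tumour. The 6 genes on the right stay within 0.60 log2 units from lowest to highest.

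S100a8, S100a9 and Retnlg put the tumours in nearly the same order. In each of the 3, non-adipose replicate 1 was highest, then non-adipose replicate 3, then white adipose replicate 3, then white adipose replicate 2 (with a tie for Retnlg). White adipose replicate 1 and non-adipose replicate 2 were at the bottom. This order of the 4 highest arrays, read from S100a8 after its values were seen, was found in 0.938% of all genes. Csf3r did not follow it, with non-adipose replicate 3 highest and white adipose replicates 3 and 2 above non-adipose replicate 1.

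The genes outside the 10 whose pattern over the 6 arrays was most like the members' mean were Gbp7, Gbp5, Ifit1bl2, Ifi213 and Scimp. Likeness was Pearson's r with the mean of the members after each was centred, over 1444 genes with a standard deviation of at least 0.3 outside the members, leaving out predicted and clone-based genes, small RNA genes and olfactory and vomeronasal receptor genes, and was 0.98, 0.97, 0.97, 0.97 and 0.94 for the 5 genes. The members were centred but not scaled, so S100a8, S100a9, Csf3r and Retnlg, which varied most, weigh most in that mean. The points are 6 arrays, and these 5 genes were picked as the highest of the 1444. Gbp5, a guanylate-binding protein gene, was at 7.38, 7.86 and 7.94 in the white adipose tumours, against 8.54, 7.30 and 8.07 in the non-adipose tumours. As in S100a8, non-adipose replicates 1 and 3 were highest. Scimp, an adaptor of antigen-presenting cells, differed by -0.16 (SE 0.24) between sites.

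Other genes of the neutrophil programme were compared as lists of known function. Of 17 further granule and cytosol protein genes, 9 had a higher and 8 a lower mean in white adipose tumours, with a median difference of 0.056 (-0.035 when white adipose replicate 3 was left out, 0.16 when replicate 1 of that site was). Of these, 2 were lower at an unadjusted p under 0.05, beside 2.13% of all genes. Chil3, a chitinase-like protein of neutrophils and of alternatively activated macrophages, was at 4.11, 4.29 and 4.41 in white adipose tumours, against 5.30, 5.21 and 4.998 in non-adipose tumours. Its groups did not overlap, beside 3.97% of all genes with white adipose lower. The difference was -0.90 (SE 0.11; limma, adjusted p = 0.936), between -0.99 and -0.82 with 1 array left out. The order of tumours for Chil3 was not that of S100a8. The mean signal of Chil3 stood at percentile 24.5 of the genes measured. Mmp9, the gelatinase of tertiary granules, was at 7.92, 7.76 and 7.54 in white adipose and at 8.07, 8.82 and 8.47 in non-adipose tumours, a difference of -0.71 (SE 0.20; adjusted p = 0.936). Padi4, the enzyme that citrullinates histones in neutrophil extracellular traps, differed by 0.44 (SE 0.22). The primary granule genes Mpo and Elane, made by marrow precursors, varied little. Mpo ran from 4.94 to 5.08 in white adipose and from 4.87 to 4.94 in non-adipose tumours, and Elane from 5.52 to 5.68 in white adipose and from 5.39 to 5.52 in non-adipose tumours.

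A pair of granule genes and 1 chemokine, named after their values were seen, had the alarmins' high or low tumours in part. Lcn2, which encodes the iron-scavenging lipocalin 2, was at 6.15, 7.18 and 7.41 in white adipose tumours, against 7.82, 6.04 and 7.18 in non-adipose tumours. Mmp8, the neutrophil collagenase, was at 4.42, 5.08 and 4.80 in white adipose and at 5.35, 4.69 and 5.08 in non-adipose tumours. Cxcl5, a chemokine that draws neutrophils through CXCR2, was at 8.92, 8.60 and 8.80 in white adipose and at 9.80, 7.19 and 8.76 in non-adipose tumours. All 3 were highest in non-adipose replicate 1, and their site differences were -0.096 (SE 0.53), -0.28 (SE 0.22) and 0.19 (SE 0.62). Among the other listed granule and cytosol protein genes only Chil3 was highest in that tumour. The rest peaked elsewhere, such as Mmp9 in non-adipose replicate 2 (8.82), Hp in white adipose replicate 3 (7.39) and Slpi in white adipose replicate 2 (6.44). Cxcl5 was picked from the 16 ligand and cytokine genes described below. Of the others, Cxcl3, Il1b and Tnf were also highest in non-adipose replicate 1 and lowest in non-adipose replicate 2. Il6 was highest in non-adipose replicate 1 only. Cxcl1, Cxcl2, Cxcl12, Csf3, Ppbp, Il1a, Il17a, Il17f, Il23a and Hc peaked in other tumours, and Csf2 was tied. The share of all genes highest in non-adipose replicate 1 was not computed.

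Surface genes of mature neutrophils were measured for 17 of 19, with 7 higher and 10 lower means and a median of -0.062 (-0.25 without non-adipose replicate 2 and 0.026 without non-adipose replicate 1). C5ar1, the receptor for complement fragment C5a, was at 5.48 to 5.68 in white adipose and 5.79 to 6.09 in non-adipose tumours and differed by -0.34 (SE 0.099; limma, adjusted p = 0.936). Itgam, the integrin chain CD11b of neutrophils and macrophages, was at 8.86 to 9.01 in white adipose and 9.08 to 9.25 in non-adipose tumours and differed by -0.22 (SE 0.073; adjusted p = 0.936). These were the 2 of the 17 at an unadjusted p under 0.05, beside 2.13% of all genes lower at that level, and in both the groups did not overlap, beside 3.97% of all genes with white adipose lower. Ly6g, the marker most used to identify mouse neutrophils, was at 3.60, 3.78 and 3.33 in white adipose tumours, against 3.73, 3.84 and 3.90 in non-adipose tumours. It differed by -0.26 (SE 0.12), and its mean signal stood at percentile 10.6 of the genes measured. The chemokine receptor Cxcr2 was at 5.63 to 5.66 in white adipose and 5.56 to 6.34 in non-adipose tumours, its high value in non-adipose replicate 3.

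Of 16 genes for ligands and cytokines of neutrophil movement, 7 had a higher and 9 a lower mean, with a median of -0.038 (0.0081 without white adipose replicate 1). Cxcl12, which retains neutrophils in the marrow through CXCR4, was at 5.73, 5.50 and 5.46 in white adipose and at 6.03, 5.87 and 6.35 in non-adipose tumours, a difference of -0.52 (SE 0.14; limma, adjusted p = 0.936). The chemokine Cxcl2 differed by -0.41 (SE 0.17; adjusted p = 0.936) and overlapped between sites. Cxcl12 and Cxcl2 were the 2 of the 16 at an unadjusted p under 0.05, beside 2.13% of all genes lower at that level. Csf3, the ligand of the receptor encoded by Csf3r, differed by 0.12 (SE 0.080).

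Of 16 genes for receptors and adaptors of the alarmins and of the TREM family, 8 had a higher and 8 a lower mean, the median was -0.00058 (-0.044 to 0.064 with 1 array left out), and 0 were at an unadjusted p under 0.05, beside 3.79% of all genes. Ly96, the TLR4 co-receptor MD-2, differed by 0.31 (SE 0.14), Plcg2, a phospholipase downstream of SYK, by 0.49 (SE 0.25) and Trem2, a TREM receptor of macrophages, by -0.15 (SE 0.086). The phagocyte NADPH oxidase, which makes the oxidative burst, had 5 of 6 subunits measured, 3 higher and 2 lower, with a median of 0.064 (-0.045 without non-adipose replicate 2). Its catalytic subunit gene Cybb differed by 0.21 (SE 0.30), Ncf1 by 0.075 (SE 0.17) and Cyba by 0.064 (SE 0.094).

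Of 10 transcription factor genes of granulocyte development, 4 had a higher and 6 a lower mean, with a median of -0.054 (0.026 without white adipose replicate 1). Klf5, a Krüppel-like factor that is also expressed in intestinal epithelium, was at 8.35, 8.11 and 8.01 in white adipose and at 7.87, 7.76 and 7.58 in non-adipose tumours, a difference of 0.42 (SE 0.12; limma, adjusted p = 0.936). It was the 1 of the 10 at an unadjusted p under 0.05, beside 1.66% of all genes higher at that level. Cebpe, needed for secondary granule genes, differed by 0.088 (SE 0.059), and Cebpd by -0.11 (SE 0.097). Of 12 other S100 genes, 6 had a higher and 6 a lower mean, with a median of -0.0088 (-0.098 without non-adipose replicate 3). S100a11 differed by -0.23 (SE 0.10), S100a3 by -0.48 (SE 0.32; -0.15 without non-adipose replicate 3 and -0.81 without non-adipose replicate 2) and S100a16 by -0.12 (SE 0.086). The S100a3 values were 5.11, 5.14 and 4.82 in white adipose and 5.52, 4.84 and 6.16 in non-adipose tumours, with non-adipose replicate 3 and not replicate 1 highest, unlike the alarmin genes.

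Markers of other cells were set beside these values. Keratinocytes can make S100A8 and S100A9. The keratinocyte list was highest in white adipose replicate 1, at 8.14, where S100a8 and Retnlg were lowest, whereas S100a9 was lowest in non-adipose replicate 2. It was next highest in non-adipose replicate 3, at 6.22, the tumour also next to the top for S100a8 (5.50). There Krt14 and Krt6a were at 7.23 and 7.31, above every tumour but white adipose replicate 1. Krt1 and Krt10 were at 5.20 and 6.05 there, close to the tumours other than white adipose replicate 1. In the keratinocyte list 14 of its 15 genes had a higher and 1 a lower mean in white adipose tumours (median 0.31, and -0.24 without white adipose replicate 1). Lor, Krt16 and Sprr1b of that list differed by 1.02 (SE 0.86), 0.94 (SE 0.80) and 0.74 (SE 0.57), and by -0.036, -0.049 and 0.042 without that array. The 2 tumours with the highest S100a8, non-adipose replicates 1 and 3, also had the highest means of the skeletal muscle list, though muscle was highest in replicate 3 and S100a8 in replicate 1. In white adipose replicates 1, 2 and 3 the muscle list was at 5.61, 5.53 and 5.47, the reverse of the order of S100a8 and S100a9. Of the 12, 11 were on average lower in white adipose tumours and 1 higher, the list ran from 5.47 to 5.61 in white adipose and from 5.43 to 6.80 in non-adipose tumours, and the median difference was -0.56 (-0.30 without non-adipose replicate 3 and -0.83 without non-adipose replicate 2). Acta1, Actn3 and Ckm differed by -1.26 (SE 0.63), -0.93 (SE 0.42) and -0.52 (SE 0.18), and by -0.66, -0.49 and -0.35 without non-adipose replicate 3. Their part in the alarmin values was not tested.

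**Figure D4:**
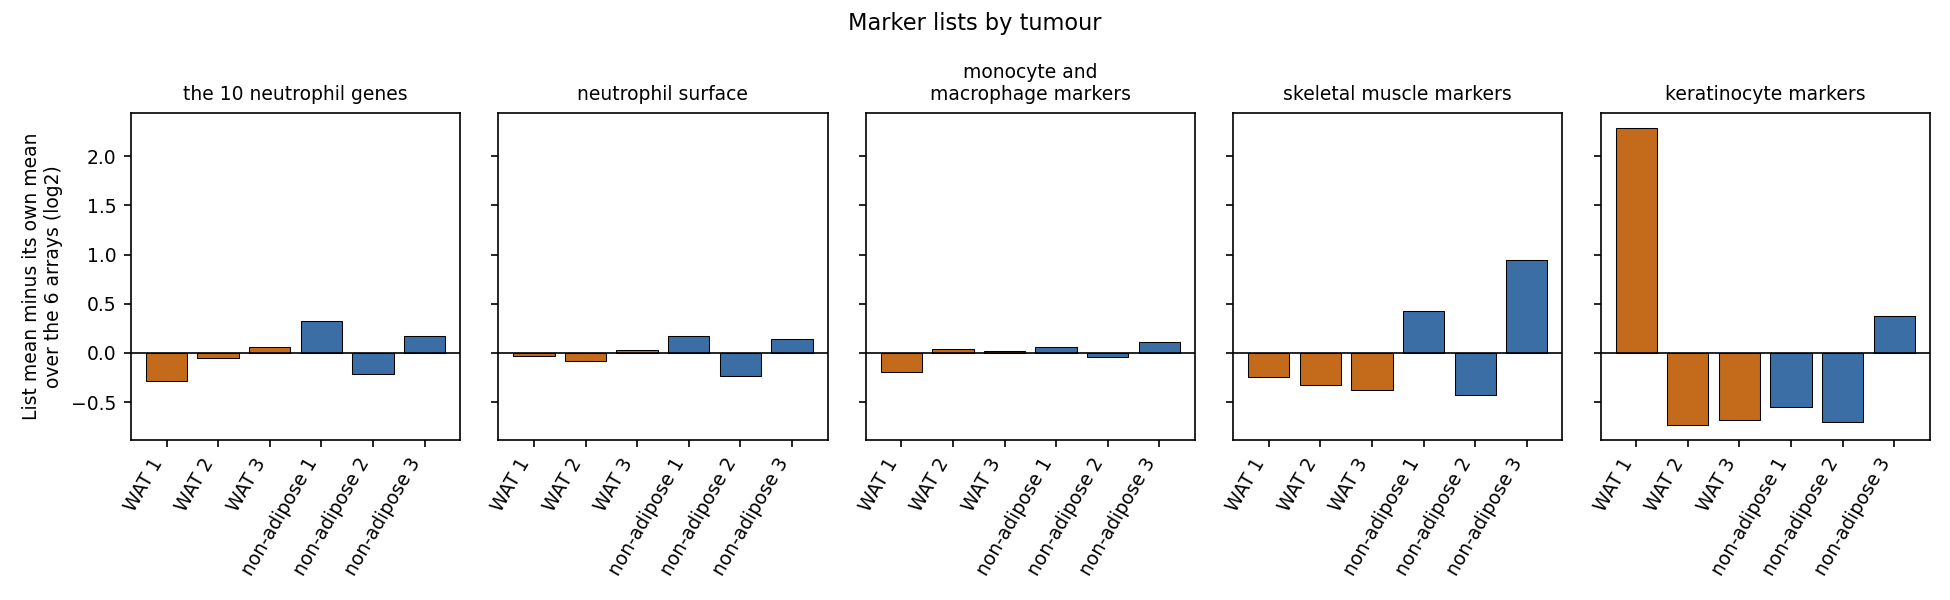
Mean log2 signal of each gene list minus its own mean over the 6 arrays (y axis) in each tumour (x axis; orange is white adipose, WAT, and blue is non-adipose). The keratinocyte list is high in white adipose replicate 1 (8.14 before centring) and next highest in non-adipose replicate 3 (6.22). The skeletal muscle list is high in non-adipose replicates 3 and 1 (6.80 and 6.27), the tumours in which S100a8 is also highest.

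Monocyte and macrophage markers, with 13 of 14 measured, ran from 8.48 to 8.72 in white adipose and from 8.64 to 8.79 in non-adipose tumours, with 6 higher and 7 lower means and a median of -0.0035 (-0.18 without non-adipose replicate 2). Cd68 differed by -0.14 (SE 0.080), Mrc1 by -0.66 (SE 0.40), Ccr2 by -0.27 (SE 0.21) and the macrophage growth factor receptor gene Csf1r by 0.027 (SE 0.14). Eosinophil, basophil and mast cell markers, 13 of 14 measured, were highest in white adipose replicate 1 and non-adipose replicate 1, at 5.42 and 5.07 against 4.57 to 4.75 elsewhere. In that list 9 had a higher and 4 a lower mean (median 0.047, and -0.039 without either white adipose replicate 1 or non-adipose replicate 3), with Il5ra at 0.097 (SE 0.091), Prg2 at 0.047 (SE 0.066) and Siglecf at -0.047 (SE 0.067). Of 10 measured T and B cell markers, 8 were on average higher and 2 lower (median 0.23, and 0.026 to 0.42 with 1 array left out), with Ms4a1 at -0.22 (SE 0.096), Cd3d at 0.26 (SE 0.17), Cd79b at -0.15 (SE 0.11) and Cd3e at 0.23 (SE 0.44).

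For the remaining lists, adipocyte markers ran from 5.73 to 6.10 in white adipose and from 5.80 to 5.98 in non-adipose tumours, with a median of 0.011 over 10 genes, 6 higher and 4 lower. Plin1 differed by 0.088 (SE 0.075), Cidec by 0.13 (SE 0.13) and Fabp4, which is also found in macrophages and vessels, by -0.43 (SE 0.55). Of 13 intestinal epithelial markers, 7 had a higher and 6 a lower mean (median 0.029). Red cell precursors were represented by 2 of 8 genes, Klf1 at 0.095 (SE 0.072) and Slc4a1 at 0.0033 (SE 0.11), with a median of 0.049. None of the genes in these lists passed after adjustment.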

How the data were processed

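Total RNA of each tumour was hybridised to 1 Affymetrix whole-transcript array as biotin-labelled cDNA, per the labels' protocols. The deposited values were log2 signals for 41345 probe sets, taken as log2 from their range of 0.973 to 13.6. Per the submitters' processing notes, the authors made them in Affymetrix Expression Console; for its version, background correction and normalization nothing is given in the sources used here. Batches, scanner intensities and detection calls were not used. Platform annotation gave exactly 1 symbol to 23521 probe sets, several to 1814 and none to 16010, and the brightest probe set was kept for each of 22180 genes. The fit over all genes used limma 3.58.1 with R 4.3.3 (lmFit, eBayes, 6 arrays, no filter, no block), white adipose against non-adipose, with p-values adjusted by Benjamini-Hochberg over all genes and 0.05 as the threshold; the fit was tested on simulated data. The median SE over all genes was 0.0972, and 3 arrays per site limit the precision. The p-values set each site difference against the spread between tumours of the same site, moderated over all genes. The members and gene lists were chosen with earlier results of these data known, so lists are given as counts and medians with no test. Text names the members, up to 3 genes per list by smallest p, 10 defining markers where measured, and 5 genes of like pattern. Promoter sequences are RefSeq's (GRCm38.p6). Alternatives were 2 array scalings, a filter on dim genes, 2 variance models, array weights, averaged probe sets, the replicate block and each array left out.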

Additional observations from a re-analysis of the deposited data

How the results depend on the processing

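limma called 0 genes under each of 14 alternatives, and the adjusted p of a member ran from 0.665 to 1. S100a8, Retnlg, Camp, Trem1 and Trem3 kept their direction in each alternative except the filter on dim genes, which left them out, though Trem1 was at -0.00027 without non-adipose replicate 3; S100a9, Csf3r, Ngp, Ltf and Cd177 changed sign with an array left out, running from -0.69 to 0.12, -0.21 to 0.29, -0.15 to 0.032, -0.068 to 0.17 and -0.25 to 0.053. The count of members with a lower mean, 7, was 5 to 9 with 1 array left out, and 0 in the filter on dim genes, which kept 1 member (Csf3r, 0.079). Labels give no meaning to shared replicate numbers: deviations of same-numbered arrays correlated at 0.14, 0.064 and 0.064, 4 of 6 arrays correlated best with their own number, and with the replicate block 7 members had a lower mean, the members' median was -0.11 and 0 genes were called. Among the 60 other named genes, those that changed sign ran, with 1 array left out, from -0.0067 to 0.12 (Cyba), -0.071 to 0.44 (Cybb), -0.028 to 0.24 (Ncf1), -0.074 to 0.0060 (Siglecf), -0.078 to 0.089 (Slc4a1), -0.036 to 1.61 (Lor), -0.049 to 1.43 (Krt16), -0.0044 to 0.22 (Cidec), -1.04 to 0.00053 (Fabp4), -0.58 to 0.040 (Gbp5), -0.38 to 0.017 (Scimp), -0.35 to 0.033 (Cxcr2), -0.023 to 0.063 (Adipoq), -0.066 to 0.27 (Epcam), -0.058 to 0.19 (Csf1r), -0.033 to 0.72 (Cd3e), -0.58 to 0.31 (Lcn2) and -0.50 to 0.80 (Cxcl5). Slc4a1 was also at -0.018 with array medians subtracted and -0.025 after quantile normalization, and Lcn2 at 0.10 with array weights. Of list medians, granule proteins became -0.075 and intestinal markers 0.11 in the filter on dim genes, where the small medians of neutrophil surface, alarmin and TREM signalling, other S100 and adipocyte genes also changed sign. With 1 array left out, medians ran from -0.035 to 0.16 (granule proteins), -0.25 to 0.026 (neutrophil surface), -0.074 to 0.0081 (recruitment ligands), -0.044 to 0.064 (alarmin and TREM signalling), -0.045 to 0.12 (NADPH oxidase), -0.039 to 0.12 (eosinophil, basophil and mast cell), -0.0018 to 0.062 (adipocyte), -0.0084 to 0.10 (red cell), -0.24 to 1.02 (keratinocyte), -0.83 to -0.30 (skeletal muscle), -0.068 to 0.026 (transcription factors), -0.098 to -0.0072 (other S100), -0.18 to 0.055 (macrophage) and -0.0026 to 0.16 (intestinal). The cause of these moves was not tested. Where an array was left out, its site had 2 arrays and the spread was pooled over all 5. Signals close to background, for which no detection calls were at hand, limit what Ngp, Camp and Ly6g can show. Retnlg, Chil3, Trem3 and S100a8 stood at percentiles 21.2, 24.5, 29.1 and 29.4 of mean signal, so the same limit applies to their lowest values.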

Other observations

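Exact ties between arrays were frequent in the deposited values. Of the 10 genes, Retnlg, Ngp, Ltf, Cd177 and Trem1 had the same value to the last deposited digit in at least 2 arrays, and Ngp in 3. Such ties occurred in 35.3% of all genes, in 45.4% of the lower and 25.2% of the upper range when genes were divided at the median of mean signal. They crossed the sites, as for Retnlg in white adipose replicate 2 and non-adipose replicate 2, and a standard deviation over tied arrays, such as 0.018 for Cd177 in the non-adipose tumours, can understate the spread.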
